A study of Mus musculus with 2 samples.

Results

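Aire and Fezf2 are the only 2 of the 55487 genes in the count matrix that were followed here. Both were taken by symbol, and each symbol had 1 row. They were followed across classes of medullary thymic epithelial cells (mTECs) and between spermidine and PBS samples. The mice were wild-type C57BL/6J females aged 4 weeks. Once a day for 7 days they were injected intraperitoneally, in the spermidine group with 15 mg/kg spermidine dissolved in PBS (phosphate-buffered saline) and in the PBS group with the saline only. Cells carrying CD45 were removed on beads, and 2 populations were sorted by flow cytometry: mTEClo cells past Aire expression and mTEChi cells, in which Aire is expressed. The 4 samples, spermidine replicates 1 and 2 and PBS replicates 1 and 2, were marked with hashtag antibodies and pooled into 1 droplet run of 10x Genomics 3′ chemistry. Whether the replicates are different mice is not stated in the labels, so every p-value measures only the spread between hashed samples, which may be technical. The sort and the mixing of the sorted populations can set how many cells of each class a sample holds.

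mTECs display proteins of other organs to developing T cells, so that self-reactive T cells are removed or diverted. Aire is a nuclear protein of the late mTEChi stage that switches on a very large number of tissue-restricted genes at poorly active promoters, through partners that release stalled RNA polymerase. Fezf2 is a zinc-finger transcription factor, first known from forebrain neurons, that switches on another set of tissue-restricted genes in mTECs and works with the chromatin remodeller Chd4. Aire is induced through the receptors RANK, CD40 and the lymphotoxin receptor. Cells that have passed the Aire stage lose Aire and can take on programmes of other tissues, such as those of keratinocytes, tuft cells or microfold cells (mimetic mTECs).

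The tags that assign a cell to a sample are shown first, because every comparison of treatments rests on them. They are 15-base oligos, written 5′ to 3′ in lower case, and any pair of the 4 differs at 8 to 13 positions.
HT2 (spermidine replicate 1): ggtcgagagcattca
HT3 (spermidine replicate 2): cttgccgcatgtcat
HT4 (PBS replicate 1): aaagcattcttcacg
HT5 (PBS replicate 2): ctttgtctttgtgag

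Aire (ENSMUSG00000000731.15) lies on the minus strand of chromosome 10 from 78030022 to 78043610, and Fezf2 (ENSMUSG00000021743.6) on the minus strand of chromosome 14 from 12342094 to 12348189 (GENCODE M21, GRCm38, the assembly called mm10). The 5′ end of Aire overlaps Dnmt3l, a gene on the opposite strand, from 78041947 to 78043610, and the exons of the 2 genes share 67 bases there. The chemistry reads the 3′ ends of transcripts, at the other end of Aire. Whether the counting used strand is not given in the sources used here. Promoter sequence before each transcription start is shown because the study asks how Aire chooses promoters and these are the promoters of the 2 regulators themselves. Both come from RefSeq (GRCm38.p6) and read 5′ to 3′ on the gene's strand, without any annotated exon. The start that RefSeq gives for Fezf2, at 12345865, lies inside the GENCODE gene, which reaches 12348189 through 1 longer transcript. The stretch shown for Fezf2 lies in an intron of that transcript and stops short of the RefSeq start, leaving out the 94 bases before it, where an exon of another transcript begins. In Aire, at chr10:78043611-78043860, capitals mark a CCAAT box read on the opposite strand and a TATAAA box. In Fezf2, at chr14:12345960-12346115, capitals mark the longest run in which purines and pyrimidines alternate, the base pattern that can turn into Z-DNA.
Aire: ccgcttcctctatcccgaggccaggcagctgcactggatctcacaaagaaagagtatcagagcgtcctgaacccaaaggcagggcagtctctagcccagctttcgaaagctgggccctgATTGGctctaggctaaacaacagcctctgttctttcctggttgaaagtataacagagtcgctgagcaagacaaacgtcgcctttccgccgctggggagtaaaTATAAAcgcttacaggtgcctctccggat
Fezf2: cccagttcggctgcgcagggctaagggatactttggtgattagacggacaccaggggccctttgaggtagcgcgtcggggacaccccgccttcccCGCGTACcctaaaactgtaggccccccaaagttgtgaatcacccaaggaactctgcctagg

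Motifs were searched on both strands in the whole RefSeq window of each gene, 250 bases before to 50 after the start. TATAAA began 29 bases before the start of Aire and was absent from the Fezf2 window; 13.6% of 32851 windows hold it. CCAAT was present at 1 place in the Aire window and absent from the Fezf2 window, against 37.4% of all windows. GGGCGG was absent from the Aire window and present at 1 place in the Fezf2 window, beginning 85 bases before the start, against 35.7% of all windows. CACACA was in neither window, against 21.1% of all windows. The longest alternating run measured 9 bases in the Aire window, a length that 32.0% of windows reach, and 7 bases in the Fezf2 window, which 74.1% reach. The Aire window held 16 CpG dinucleotides and the Fezf2 window 20, against a median of 7 over all windows. These matches describe letters only.

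The 4 samples held 4709 kept cells and 84744979 UMIs (unique molecular identifiers, each a counted transcript copy). Spermidine replicate 1 held 1374 cells, spermidine replicate 2 held 1007, PBS replicate 1 held 1335 and PBS replicate 2 held 993, with medians of 15736 to 17365 UMIs per cell. Aire gave 34136 and Fezf2 26502 of these UMIs. The cells carried epithelial markers: 93.0% had a UMI of Epcam and 94.7% of Krt8, while Cldn4, a junction protein of some mTECs, was found in 35.8%. Cells were grouped by 16 clusters made on other genes, without Aire and Fezf2, and clusters were named from markers that did not include them. Class and level are still not independent. Offering the 2 genes to the clustering changed the class of 0 cells. Some markers, such as Csn2 for the Aire stage and Krt10 for keratinocytes, also stand in the lists used below of antigens that need Aire or Fezf2. Since clusters were made from the same cells, differences between classes are given as a description with no test.

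The classes that hold most of both genes were 4. The Aire-stage-like class (694 cells) had 7 of its 14 markers more than 2-fold above the other cells, and its leading genes were Car10, Pcdh9 and Prg4, with no marker of any list among its top 10 genes. The transit-amplifying-like class (379 cells) had all 12 of its division markers that high, led by Pclaf, Ccna2 and Pbk. A cluster led by Klk1b11 (678 cells) had 6 of the 14 Aire-stage markers that high, but held Ccl5, a microfold marker, among its top 10 genes and no Aire-stage marker there, so it is called Klk1b11-led. The naming of these 2 clusters thus rests on 1 marker more and on Ccl5. A small cluster led by Thrsp (78 cells) had 4 of the 12 division markers that high and is called Thrsp-led.

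Aire was concentrated in these 4 classes. In the Thrsp-led class Aire reached 1121 ± 194.9 UMIs per 1000000 (mean ± SD over the 4 samples, as for all class levels below), with samples from 938.8 to 1358. In the Aire-stage-like class it reached 990.5 ± 23.1, and the 4 samples lay within 965.1 to 1012. The 2 classes overlapped, and the Aire-stage-like samples were the more tightly grouped. In the transit-amplifying-like class the level was 802.6 ± 65.8, from 719.8 to 871, below every Aire-stage-like sample. In the Klk1b11-led class it was 426.5 ± 18.9, from 411.6 to 453.4, again below every sample of the class before it. The next class was microfold-like, at 123.0 ± 38.9, and no sample of it passed 176.

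Below these the order of Aire levels could not be resolved. The enterocyte or hepatocyte-like (91.4 ± 36.9), immature mTEC-like (77.8 ± 27.8), neuroendocrine-like (68.8 ± 37.9), keratinocyte-like (64.9 ± 15.5) and ciliated-like (58.7 ± 41.0) classes overlapped their neighbours in the order. Tuft-like cells, the class with the most cells (1278), held 36.8 ± 7.9. The myeloid-like class, whose cells are not epithelial and should lack Aire, held 38.9 ± 22.6, and the thymocyte-like class 97.8 ± 88.4, with samples from 14.9 to 187.3. The samples of each class from microfold-like to tuft-like thus overlapped the range of the thymocyte-like samples. That range rests on few cells. Its PBS samples held 46 Aire UMIs in 5 cells and 23 in 2 cells, and its spermidine samples held 4 and 8 Aire UMIs. The 6-hashtag assignment adds HT6 and HT7, tags for which the labels give no sample, and also removes barcodes called doublets with them. With it, mean Aire levels were lower in neuroendocrine-like (31.0), keratinocyte-like (28.8), ciliated-like (39.6) and myeloid-like cells (22.2). They were over 1.5 times lower in each of these but the ciliated-like class. The lowest class was muscle-like, at 9.92 ± 7.05, with 8 Aire UMIs in 33 cells.

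**Figure D1:**
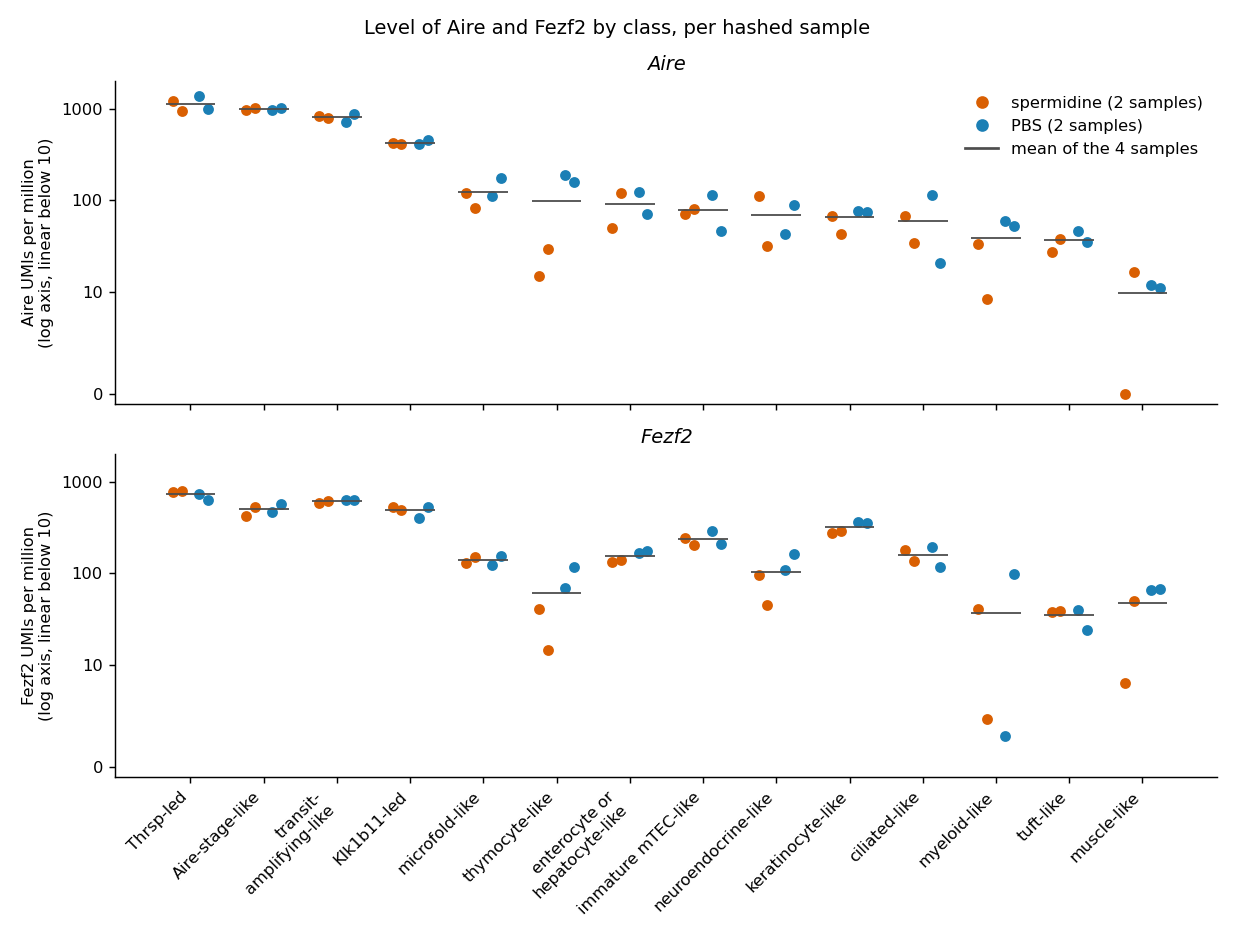
Level of Aire (top) and Fezf2 (bottom) in UMIs per 1000000 in each of the 14 classes, on a log axis that is linear below 10, classes ordered by their Aire level. Points are hashed samples (spermidine orange and left, PBS blue and right) and the grey bar is the mean of the 4 samples; Aire falls below 200 in every sample outside the first 4 classes, while Fezf2 stays between 277.0 and 358.4 in keratinocyte-like cells.

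Fezf2 was spread over more classes than Aire. Its level was 733.6 ± 74.2 UMIs per 1000000 in the Thrsp-led class, from 632.2 to 798.7. In the transit-amplifying-like class it was 613.0 ± 17.9, and no sample there reached the lowest Thrsp-led value. The Aire-stage-like class, at 497.1 ± 62.0, and the Klk1b11-led class, at 485.4 ± 59.6, overlapped, although their Aire levels were far apart. Keratinocyte-like cells, which show the programme of cornified skin, held 320.3 ± 43.5, with 277.0 to 358.4 across samples. Immature mTEC-like cells, marked by genes such as Ccl21a and Krt5, held 236.4 ± 39.0. The next 4 classes, ciliated-like (156.2 ± 36.8), enterocyte or hepatocyte-like (153.8 ± 21.02), microfold-like (138.5 ± 14.3) and neuroendocrine-like (103.7 ± 48.5), overlapped in order. Tuft-like cells were lowest, at 35.0 ± 7.3, next to the myeloid-like class at 36.6 ± 44.5.

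The balance between the 2 genes shifted between classes in all 4 samples. A ratio of UMIs of 2 genes also carries how well each transcript is captured, so only its differences between classes are given. In the Aire-stage-like class there were 0.436 and 0.523 Fezf2 UMIs per Aire UMI in the spermidine samples, and 0.486 and 0.559 in the PBS samples. In transit-amplifying-like cells the ratio was 0.705 and 0.778 in the spermidine samples, and 0.868 and 0.722 in the PBS samples. In the Klk1b11-led class it was 1.23 and 1.18 in the spermidine samples, and 0.97 and 1.16 in the PBS samples. The 3 classes did not overlap in this ratio. In keratinocyte-like cells the ratio was 4.1 to 6.82, and in immature mTEC-like cells 2.54 to 4.52. With the 6-hashtag assignment these became 8.36 to 20.6, on as few as 15 Aire UMIs in a sample, and 2.16 to 4.24. The Aire level was 42.4 to 76.0 across keratinocyte-like samples and 46.4 to 113.7 across immature mTEC-like samples. Both ranges overlapped those of the non-epithelial classes, 9.33 to 59.97 in myeloid-like and 14.9 to 187.3 in thymocyte-like samples. The ratios of these 2 classes thus rest on Aire not shown to exceed its non-epithelial level, and no shift in balance was read from them.

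Detection in single cells was compared after each cell was thinned at random to 5000 UMIs, which leaves out 544 of the 4709 cells that were shallower. Pooled over samples, a UMI of Aire was found in 89.4% of Aire-stage-like cells and 91.8% of transit-amplifying-like cells, against 57.4% of Klk1b11-led cells. Fezf2 was found in 68.5%, 85.5% and 73.3% of the same classes. Without thinning, Aire was found in 94.7%, 90.5% and 74.8%, and Fezf2 in 87.0%, 90% and 83.9% of them, at medians of 23805, 28415 and 17820.5 UMIs per cell.

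Shares in cells that should lack these genes were measured for comparison. Among myeloid-like cells, thinned in the same way, 8 of 64 had an Aire UMI (12.5%, exact 95% binomial interval 5.55% to 23.2%) and 1 of 64 a Fezf2 UMI (1.56%, 0.0396% to 8.4%), at a median of 17166.5 UMIs per cell before thinning. Among thymocyte-like cells, 11.7% had an Aire and 10.4% a Fezf2 UMI, at a median of 5965. These intervals cover counting error only. Aire in tuft-like cells (13.3%, median 12712) and keratinocyte-like cells (13.7%, median 13467) lay within the myeloid-like interval. So did Aire in muscle-like (6.06%), ciliated-like (15.6%), neuroendocrine-like (19.8%), immature mTEC-like (21.5%) and enterocyte or hepatocyte-like cells (23.1%). No expression was read from Aire detection in any of these classes. Aire in microfold-like cells (25.5%) lay above that interval. The myeloid-like shares of the 2 genes differed, and the source of Aire UMIs in those cells was not tested. Fezf2 in tuft-like cells (12.2%) lay above the myeloid-like interval, but within that of the thymocyte-like cells (8 of 77 cells, 4.59% to 19.4%). Fezf2 in keratinocyte-like cells (60.6%) and immature mTEC-like cells (55.6%) lay far above both non-epithelial classes. Cells with Fezf2 and without Aire therefore made up 50.5% of keratinocyte-like and 41.9% of immature mTEC-like cells, against 6.33% of Aire-stage-like cells.

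With thinned cells, both transcripts were found in 62.2% of Aire-stage-like, 78.8% of transit-amplifying-like, 45.2% of Klk1b11-led and 89.6% of Thrsp-led cells. Only Aire was detected in 27.2% of the Aire-stage-like and 12.2% of the Klk1b11-led class, and only Fezf2 in 6.33% and 28.1%. Over all cells, both were found in 27.3%, which is 1.46 times the product of the separate shares. Within classes the observed share over the product was 1.02 in Aire-stage-like, 1 in transit-amplifying-like and 1.08 in Klk1b11-led cells. The separate shares alone cap this ratio at 1.12, 1.09 and 1.36 in these classes, against 2.18 over all cells, so the first 2 classes leave it little room to exceed 1. In classes with fewer detections it was 1.31 in tuft-like (25 of 1171 cells with both), 1.28 in neuroendocrine-like, 1.21 in keratinocyte-like, 1.15 in immature mTEC-like and 0.898 in microfold-like cells.

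Barcodes that hold more than 1 cell can also show both genes. Of the 4709 assigned cells, 897 were doublets when 6 hashtags were demultiplexed in place of 4, with a median of 21727 UMIs, against 15692 for the 3612 that remained single. With only the cells assigned under 6 hashtags, both genes were found in 61.2% of Aire-stage-like, 79.2% of transit-amplifying-like and 46.4% of Klk1b11-led cells. The observed share over the product was then 1.02, 1.01 and 1.09, and it was 1.28 in tuft-like, 1.15 in neuroendocrine-like, 1.15 in keratinocyte-like and 1.11 in immature mTEC-like cells.

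**Figure D2:**
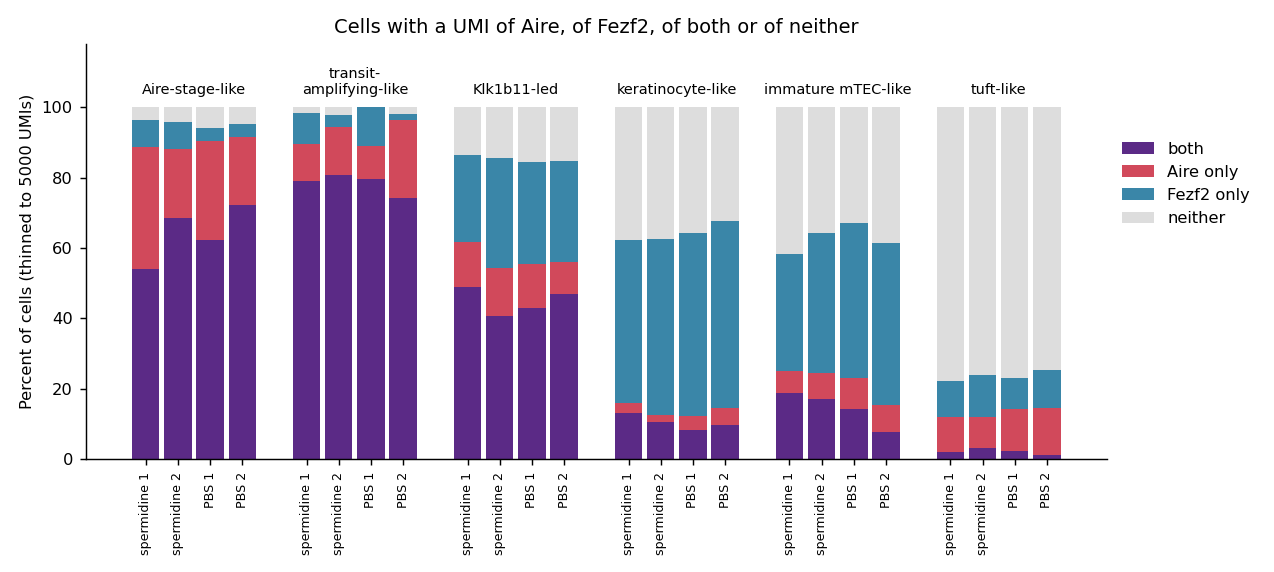
Percent of cells with a UMI of both genes, of Aire only, of Fezf2 only or of neither, in 6 classes and 4 hashed samples (spermidine left of PBS), after thinning each cell to 5000 UMIs. Cells with both genes dominate the Aire-stage-like and transit-amplifying-like classes, cells with Fezf2 only the keratinocyte-like class, and cells with neither the tuft-like class.

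Pooled over samples, cells with 6 or more Aire UMIs held Fezf2 more often than cells of the same class with none. In the Klk1b11-led class Fezf2 was found in 65.9% of 252 cells with no Aire UMI, 74.9% of 179 cells with 1 or 2, 77.5% of 89 cells with 3 to 5 and 90.1% of 71 cells with 6 or more. In the Aire-stage-like class the shares over the same steps were 59.4% of 69 cells, 58.3% of 132, 71.4% of 210 and 74.3% of 237. In the transit-amplifying-like class they were 81.5% of 27, 81.5% of 92, 85.4% of 123 and 90.9% of 88. Spearman's rho between the thinned UMIs of the 2 genes was 0.142 over 648 Aire-stage-like cells, 0.171 over 591 Klk1b11-led cells and 0.18 over 330 transit-amplifying-like cells. By sample it ran from 0.093 to 0.271, from 0.13 to 0.225 and from 0.033 to 0.246 in these classes. These coefficients are weak, the cells share libraries, and they are given as a description.

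**Figure D3:**
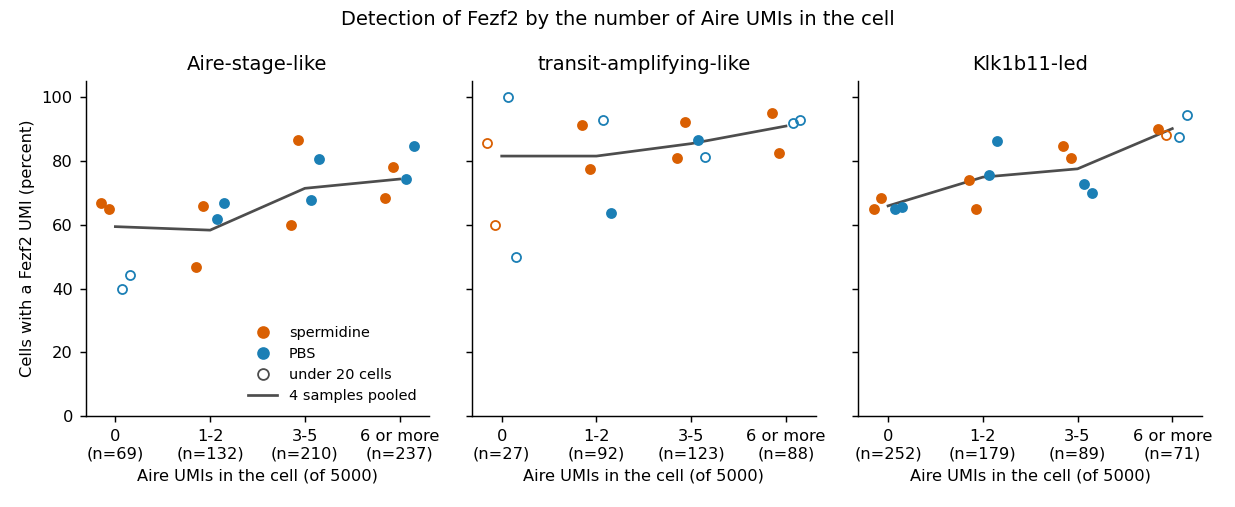
Percent of cells with a Fezf2 UMI by the number of Aire UMIs in the same cell, in 3 classes, after thinning to 5000 UMIs. Points are hashed samples (open where they hold under 20 cells), the line pools the 4 samples, and n is the number of cells; the line runs from 65.9% to 90.1% in Klk1b11-led cells.

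Summed over all kept cells, Aire was higher in both spermidine samples than in both PBS samples. Scaled with TMM factors, Aire stood at 520.6 and 458.0 CPM (counts per 1000000 UMIs) in the spermidine samples, against 264.8 and 365.9 CPM in the PBS samples. Fezf2 stood at 353.6 and 354.2 CPM in the spermidine samples, against 235.7 and 317.5 CPM in the PBS samples. Neither pair of groups overlapped, but 26% of the 22660 genes tested had both spermidine values above both PBS values in the same way, and 25.9% both below.

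Neither difference passed the test over all genes. For Aire the log2 fold change of spermidine over PBS was 0.635 ± 0.166 (SE), with an adjusted p of 0.173 by edgeR's quasi-likelihood test, and the direction was the same in 2 of 2 spermidine samples against 2 PBS samples. For Fezf2 it was 0.356 ± 0.145, with an adjusted p of 0.288. The test called 0 of 22660 genes, while 4091 had an unadjusted p under 0.05 and DESeq2 called 797 of 38644. The Aire call depended on these settings and on PBS replicate 2: its adjusted p was 0.00186 with DESeq2, which was run without the low-count filter, 4.04e-08 by edgeR without that filter, and 0.0288 by edgeR without PBS replicate 2, where the log2 fold change was 0.867. For Fezf2 the adjusted p was 0.166 with DESeq2, 0.00325 by edgeR without the low-count filter, and 0.0271 by edgeR without PBS replicate 2 (log2 fold change 0.567), while without PBS replicate 1 the log2 fold changes were 0.419 for Aire and 0.156 for Fezf2.

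A sum over all cells moves with the make-up of the sample. Aire-stage-like cells were 20.3% and 18.0% of the cells in the spermidine samples, against 8.54% and 12.1% in the PBS samples. Transit-amplifying-like cells were 10.4% and 10.0% of the spermidine samples, against 5.02% and 6.85% of the PBS samples. Klk1b11-led cells were 15.1% and 15.7% of the spermidine samples, against 11.7% and 15.8% of the PBS samples. Tuft-like cells, low in both genes, were 23.0% and 21.9% of the spermidine samples, against 34.3% and 28.5% of the PBS samples. The groups overlapped for the Klk1b11-led class and not for the other 3 classes. Among the classes not listed, only enterocyte or hepatocyte-like and myeloid-like cells overlapped, so separation was not particular to the classes listed. The sort can set such shares.

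The sums were therefore recomputed with 1 component held fixed. The shares used here are of each sample's UMIs, not of its cells, so they also carry the UMIs per cell. With each class held at its mean level over the 4 samples and only the shares of the classes left to vary, Aire came to 511.2 and 460.5 UMIs per 1000000 in the spermidine samples, against 271.4 and 351.3 in the PBS samples, a log2 ratio of 0.642. The observed values, unscaled, were 513.4 and 450.5 in the spermidine samples, against 271.7 and 364.9 in the PBS samples, a log2 ratio of 0.598. With the shares held at their mean and only the class levels left to vary, Aire came to 399.3 and 388.8 in the spermidine samples, against 392.7 and 413.6 in the PBS samples, a log2 ratio of -0.033. For Fezf2 the log2 ratios were 0.399 from shares alone, 0.319 as observed and -0.061 from levels alone. In an exact permutation test 2 samples against 2 cannot give a p below 0.333 (two-sided), which shares alone reached for both genes, while levels alone gave 0.667 for both.

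**Figure D4:**
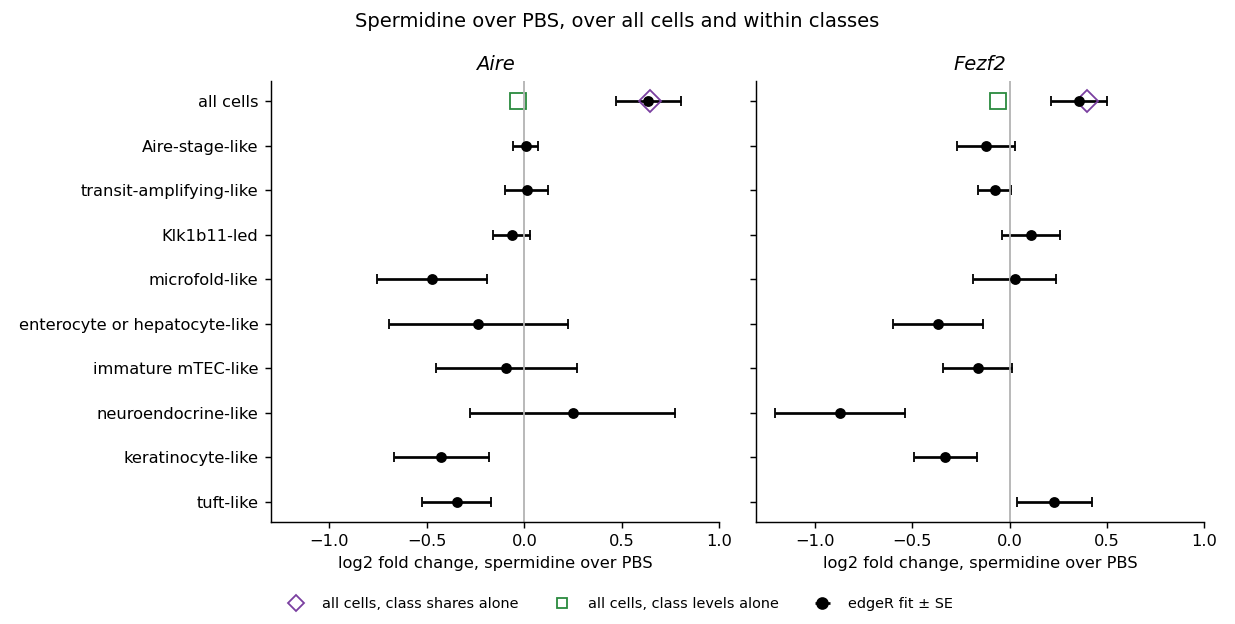
Log2 fold change of spermidine over PBS for Aire (left) and Fezf2 (right), over all cells and within each fitted class, with the SE of the edgeR fit (2 samples per treatment). Open diamonds give the ratio from class shares of UMIs alone and open squares that from class levels alone. For Aire the diamond lies at 0.642, next to the fit over all cells, and the square at -0.033.

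In the Aire-stage-like, transit-amplifying-like and Klk1b11-led classes, neither gene passed the test between treatments. In Aire-stage-like cells Aire stood at 993.3 and 1016 CPM in the spermidine samples, against 974.5 and 1026 CPM in the PBS samples. Both spermidine values fell between the PBS values. The log2 fold change was 0.007 ± 0.065, with an adjusted p of 0.996 by edgeR. Fezf2 stood at 432.8 and 531.6 CPM in the spermidine samples, against 474.1 and 573.3 CPM in the PBS samples, and the groups overlapped. Its log2 fold change was -0.12 ± 0.148, with an adjusted p of 0.987; with the 6-hashtag assignment it was -0.21 (adjusted p of 0.967). In this class edgeR called 0 of 16777 genes (0% in either direction), while 862 had an unadjusted p under 0.05 and DESeq2 called 42.

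In transit-amplifying-like cells Aire stood at 837.0 and 798.3 CPM in the spermidine samples, against 717.5 and 903.6 CPM in the PBS samples. The spermidine values again lay between the PBS values, and the log2 fold change was 0.013 ± 0.11. Fezf2 stood at 589.9 and 620.7 CPM in the spermidine samples, against 622.8 and 652.1 CPM in the PBS samples. Both spermidine values lay below both PBS values, as for 17.6% of the 11686 genes tested there (17.7% lay above), and the log2 fold change was -0.075 ± 0.085 with an adjusted p of 0.96 by edgeR, which called 1 gene in this class (0.00856%). The treatment effect in Aire-stage-like cells minus that in transit-amplifying-like cells, tested as an interaction in edgeR, was -0.047 ± 0.134 for Aire and -0.08 ± 0.138 for Fezf2 on the log2 scale, both with an adjusted p of 1 (0 of 16359 genes called, 739 at an unadjusted p under 0.05).

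In the Klk1b11-led class Aire stood at 428.3 and 415.9 CPM in the spermidine samples, against 417.9 and 465.7 CPM in the PBS samples, with a log2 fold change of -0.066 ± 0.095. Fezf2 stood at 528.0 and 491.9 CPM in the spermidine samples, against 405.5 and 540.6 CPM in the PBS samples, with a log2 fold change of 0.109 ± 0.15. The groups overlapped for both genes, and the adjusted p by edgeR was 0.967 for Aire and 0.965 for Fezf2. With the 6-hashtag assignment the log2 fold change of Aire was -0.302 (adjusted p of 0.948) and that of Fezf2 0.009 (adjusted p of 0.995). Summed UMIs of 5 erythroid markers differed between treatments in this class, at 489 and 1470 per 1000000 UMIs in the spermidine samples, against 70.6 and 67.9 per 1000000 UMIs in the PBS samples. In the transit-amplifying-like class the same sum was 18.6 and 301 in the spermidine samples, against 14.2 and 13.9 in the PBS samples. In the Aire-stage-like class it was 221 and 330 in the spermidine samples, against 269 and 206 in the PBS samples. There 12 thymocyte markers summed to 126 and 96.7 in the spermidine samples, against 70.2 and 107 in the PBS samples. The source of these marker UMIs, and their part in the levels of Aire and Fezf2, was not tested.

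The classes with less Aire gave wider intervals. Aire had log2 fold changes of -0.476 ± 0.282 in microfold-like, -0.426 ± 0.244 in keratinocyte-like, -0.348 ± 0.175 in tuft-like, -0.237 ± 0.459 in enterocyte or hepatocyte-like, -0.093 ± 0.363 in immature mTEC-like and 0.247 ± 0.524 in neuroendocrine-like cells. These rest on 241 to 715 Aire UMIs per class over 4 samples, and the adjusted p ran from 0.531 to 1 by edgeR. Fezf2 in keratinocyte-like cells stood at 281.7 and 300.05 CPM in the spermidine samples, against 364.5 and 366.1 CPM in the PBS samples. The groups did not overlap, as for 17.1% of genes lower in that class, and the log2 fold change was -0.329 ± 0.162 with an adjusted p of 0.963. Fezf2 in neuroendocrine-like cells stood at 98.3 and 47.5 CPM in the spermidine samples, against 110.9 and 168.8 CPM in the PBS samples. Its log2 fold change was -0.87 ± 0.332, with an unadjusted p of 0.0321 and an adjusted p of 1 by edgeR, beside 16.7% of genes with both spermidine values below both PBS values. Without the low-count filter that adjusted p was 0.00275. The log2 fold change was -1.533 without spermidine replicate 1, -0.49 without spermidine replicate 2, -0.563 without PBS replicate 2 and -1.265 with the 6-hashtag assignment, and none of these passed the threshold. With that assignment Aire stood at -1.307 in enterocyte or hepatocyte-like and -0.893 in microfold-like cells (adjusted p of 0.723 and 0.716 by edgeR), and Fezf2 at -0.551 in keratinocyte-like cells (adjusted p of 0.778).

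Fezf2 in enterocyte or hepatocyte-like cells stood at 137.4 and 145.7 CPM in the spermidine samples, against 175.8 and 189.9 CPM in the PBS samples (log2 fold change -0.367 ± 0.231, adjusted p of 0.986 by edgeR, with 16.9% of genes separated in that direction). In immature mTEC-like cells it stood at 247.0 and 209.8 CPM in the spermidine samples, against 296.2 and 214.3 CPM in the PBS samples, and the groups overlapped. In microfold-like and tuft-like cells the log2 fold changes of Fezf2 were 0.026 ± 0.212 and 0.23 ± 0.192. By edgeR 1 gene was called higher in microfold-like cells (0.0111% of 8997), and 10 higher (0.0716%) and 2 lower (0.0143%) of 13972 in tuft-like cells, neither member among them. Aire in tuft-like cells stood at 27.8 and 38.4 CPM in the spermidine samples, against 46.4 and 35.3 CPM in the PBS samples, and the groups overlapped, while 21.2% of genes there had both spermidine values below both PBS values. The Thrsp-led class, with 13 to 28 cells per sample, was too small to be fitted. There Aire and Fezf2 were found in at least 90.9% of the thinned cells of each of the 4 samples.

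Detection and co-detection were also compared between treatments. After thinning, Aire was found in 88.8% and 88.2% of Aire-stage-like cells in the spermidine samples, against 90.3% and 91.7% in the PBS samples. Fezf2 was found in 61.6% and 76.3% in the spermidine samples, against 66.02% and 75.93% in the PBS samples. Both were found in 54.1% and 68.6% in the spermidine samples, against 62.1% and 72.2% in the PBS samples. The observed share over the product of shares was 0.99 and 1.02 in the spermidine samples, against 1.04 and 1.04 in the PBS samples. Without thinning, the difference in the share with Aire turned: it was -2.49 percentage points, spermidine minus PBS, with thinned cells and 3.54 without. In Klk1b11-led cells both were found in 48.9% and 40.6% in the spermidine samples, against 43.0% and 47.0% in the PBS samples. In transit-amplifying-like cells both were found in 79.1% and 80.7% in the spermidine samples, against 79.6% and 74.1% in the PBS samples.

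Of 28 such comparisons of 4 sample values, including where the UMIs lie and how many a cell holds, none could reach an exact permutation p below 0.333, and the Benjamini-Hochberg adjusted values ran from 0.932 to 1. Cells that held Aire carried 25.2 and 23.9 Aire UMIs each in the Aire-stage-like class of the spermidine samples, against 23.1 and 24.4 in the PBS samples. Cells that held Fezf2 carried 12.6 and 12.9 Fezf2 UMIs in the spermidine samples, against 12.1 and 14.3 in the PBS samples.

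More of the UMIs of both genes lay in Aire-stage-like cells in both spermidine samples than in both PBS samples. For both genes the exact permutation p was 0.333, the lowest that 2 samples against 2 can give. Such percents also move with the share of cells in each class, so they are not a separate result. Of all Aire UMIs, 51.2% and 50.3% lay in Aire-stage-like cells in the spermidine samples, against 38.2% and 42.4% in the PBS samples. Of all Fezf2 UMIs, 32.8% and 34% lay there in the spermidine samples, against 20.9% and 27.3% in the PBS samples. Keratinocyte-like cells held 3.53% and 4.08% of the Fezf2 UMIs in the spermidine samples, against 11% and 7.52% in the PBS samples. Klk1b11-led cells held 12.3% and 13.7% of Aire UMIs in the spermidine samples, against 18.2% and 19.7% in the PBS samples, although their share of the cells overlapped between treatments.

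**Figure D5:**
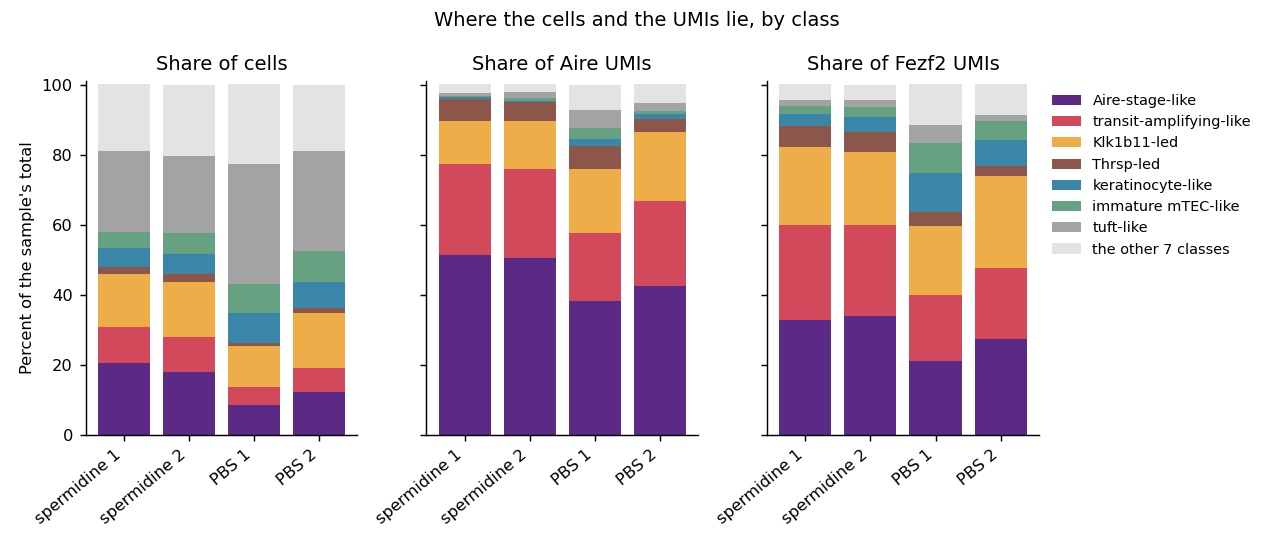
Percent of each hashed sample's cells (left), Aire UMIs (middle) and Fezf2 UMIs (right) that lie in each class, spermidine samples left of PBS samples. The Aire-stage-like class holds 51.2% and 50.3% of Aire UMIs in the spermidine samples, against 38.2% and 42.4% in the PBS samples.

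Genes upstream of Aire were read in the Aire-stage-like class. The list of 20 inducers of Aire (RANK, CD40, lymphotoxin and NF-kB signalling) had 0 members past the edgeR threshold, 0 at an unadjusted p under 0.05, 16 above and 4 below zero, and a median log2 fold change of 0.085, beside -0.007 over the 16777 genes tested. Both spermidine values lay above both PBS values for 8 of the 20, against 17.4% of all genes. Tnfrsf11a, which encodes RANK, stood at 276.5 and 294.7 CPM in the spermidine samples, against 263.0 and 259.8 CPM in the PBS samples (log2 fold change 0.128 ± 0.080, adjusted p of 0.985). Rel, a subunit of NF-kB, stood at 85.7 and 84.0 CPM in the spermidine samples, against 71.7 and 70.2 CPM in the PBS samples (0.258 ± 0.107, adjusted p of 0.974). Irf4, a transcription factor of activated immune cells, and Traf2, an adaptor of these receptors, had log2 fold changes of 0.457 ± 0.298 and 0.293 ± 0.184.

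Partners that Aire works with in the nucleus were centred on zero. Of 23 partners, 12 were above and 11 below, and the median log2 fold change was 0.0. Of these, 0 passed the threshold or an unadjusted p under 0.05. Both spermidine values lay above both PBS values for 3 and below for 2. Those with the smallest p were Hipk2, a kinase that phosphorylates Aire (0.235 ± 0.127), Mbd1, which binds methylated DNA (0.334 ± 0.213), Pias1, a SUMO ligase (-0.153 ± 0.141), and the acetyltransferase Crebbp (-0.119 ± 0.112). Of the 13 members of the NuRD complex, the partner of Fezf2 through Chd4, 7 were above and 6 below with a median of 0.04, and 0 passed the threshold or an unadjusted p under 0.05. Gatad2b (-0.297 ± 0.175), Rbbp7 (0.245 ± 0.149), Mbd2 (0.341 ± 0.215) and Gatad2a (0.303 ± 0.202) had the smallest p among them.

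Among tissue antigens that need Aire, 0 passed the edgeR threshold. Of 20 listed genes 17 could be tested, 9 above and 8 below zero, at a median of 0.026 on the log2 scale, and 1 in each direction had an unadjusted p under 0.05. Csn1s2a, a milk casein, stood at 107.2 and 95.8 CPM in the spermidine samples, against 62.4 and 51.4 CPM in the PBS samples (0.836 ± 0.150, adjusted p of 0.831). S100a9, a calcium-binding protein of neutrophils and stressed skin, stood at 999.4 and 1041 CPM in the spermidine samples, against 1271 and 1232 CPM in the PBS samples (-0.295 ± 0.064, adjusted p of 0.831). The casein Csn3 (0.882 ± 0.411) and the goblet-cell peptide Tff3 (-0.331 ± 0.162) came next. Of the 17 tested, 3 had both spermidine values above both PBS values and 2 had both below.

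The 7 tissue antigens that need Fezf2 had 2 above and 5 below zero, a median log2 fold change of -0.15, and 1 at an unadjusted p under 0.05. That gene was Fabp9, a fatty-acid-binding protein of the testis, at 8.69 and 10.3 CPM in the spermidine samples, against 23.5 and 31.2 CPM in the PBS samples (-1.53 ± 0.268, adjusted p of 0.831). Apoc3 (-0.67 ± 0.475), Ttr (0.878 ± 0.916) and Maoa (-0.193 ± 0.22) followed with larger p. Of the 7, 0 had both spermidine values above both PBS values and 1 had both below. The adjusted p of all named list members lay between 0.831 and 0.987 by edgeR.

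Over the 14 clusters with at least 50 assigned cells, Aire and Fezf2 followed similar but not identical patterns. Pearson's r between their log2(CPM + 1) values was 0.87, which ranked Fezf2 196th among the genes most like Aire, and Aire 141st among those most like Fezf2, of 15983 genes. The clusters share libraries and no p is given. The 8 genes most like Aire were Upk1a (a urothelial plaque protein, r = 0.958), Dmgdh (a mitochondrial dehydrogenase), Amdhd1 (an enzyme of histidine breakdown), 1300017J02Rik, Prdx3 (a mitochondrial peroxiredoxin), Mfap5 (a microfibril protein), Cdc25c (a phosphatase of mitotic entry) and Msx3 (a homeobox gene, r = 0.946). Of these, Cdc25c peaked in the transit-amplifying-like cluster at 47.7 CPM and Msx3 in the Aire-stage-like cluster at 19.3 CPM, while the other 6 peaked in the Thrsp-led cluster.

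The 8 genes most like Fezf2 began with Ptger3 (a prostaglandin receptor, r = 0.986) and Tspear (r = 0.971). They went on with S100a14 (a calcium-binding protein of epithelia), Bspry, Foxn1 (the transcription factor that thymic epithelium needs), Kif26a (a kinesin), Stra6 (a retinol transporter) and Vcam1 (a cell adhesion molecule, r = 0.954). Tspear peaked in the transit-amplifying-like cluster and Vcam1 in the Klk1b11-led cluster at 281.3 CPM, while the other 6 peaked in the Thrsp-led cluster. Foxn1 ran from 5.68 to 117.1 CPM over the clusters, and S100a14 from 71.3 to 1709 CPM.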

How the data were processed

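The authors deposited raw UMI counts, for genes and for hashtags in each barcode. Per the file headers, Cell Ranger 7.1.0 wrote them. The build mm10, bcl2fastq and Seurat come from the submitters' processing notes. Annotation and filters are not given in the sources used here. In all there are 12139 barcodes, 55487 genes and 15 hashtags, and 54349 gene identifiers match GENCODE M21 with their version.

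The filter on barcodes (1000 UMIs or more, 500 genes or more, mitochondrial share under 15%) kept 8534. They were assigned with HTODemux (Seurat 5.3.0, quantile 0.99) on the 4 hashtags of the labels, which left out 1027 doublets and 2798 negatives; no RNA-based doublet caller was run. Clustering used scanpy 1.11.5 on log values per 10000 UMIs (2000 variable genes, 30 components, 15 neighbours, Leiden resolution 1), with Aire and Fezf2 kept out. A cluster took the name of the marker list with the most members over 2-fold higher, if these were at least 40% of the list and no other list led its top 10 genes. This rule was set after the clusters were seen. Sums of counts for each sample within a class (at least 20 cells in each sample) were tested with edgeR 4.0.16 (quasi-likelihood, TMM, filterByExpr, Benjamini-Hochberg over all genes at 0.05); DESeq2 1.42.0 was an alternative. CPM and the thinned shares were computed from the deposited counts. The fit was tested on simulated data: in Aire-stage-like cells it missed nearly all of the smaller changes put in, and in both classes tried it called more unchanged genes than the threshold allows, so a count of 0 called does not show absence of change. The members, lists and markers were chosen with earlier results of these data known. Named list genes are the 4 testable members of each list with the smallest p in the Aire-stage-like class, and the 8 genes most like each member by r among genes with at least 200 UMIs.

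Replicate numbers do not pair the samples: the labels tie them to nothing, and same-numbered samples did not deviate together (r from -0.134 to 0.053 over the fitted classes).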

Additional observations from a re-analysis of the deposited data

Results flagged for a closer look

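Hashtag counts outside the comparisons carried a clear signal. When 6 hashtags were demultiplexed, 1187 kept barcodes were assigned to HT6 and 1219 to HT7. The labels give no sample for either tag, so their cells entered no comparison. Of the 2798 barcodes that the 4-hashtag assignment left negative, 2299 carried HT6 or HT7.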

How the results depend on the processing

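Of 401 values for 55 results under other settings, 325 kept their direction and call or moved by less than the spread between samples. For the other values the cause was not tested. Among the settings, offering Aire and Fezf2 to the clustering changed the class of 0 cells. Its values therefore repeat the main ones and were bound to be among the 325. All differences are spermidine minus PBS, log2 fold changes spermidine over PBS. With DESeq2, run without the low-count filter, the log2 fold change of Aire over all cells was 0.623 (past the threshold), and genes called were 797 over all cells, 42 in Aire-stage-like, 32 in Klk1b11-led, 12 in transit-amplifying-like and 4 in immature mTEC-like cells, against 0, 0, 0, 1 and 0 with edgeR. Without the low-count filter, edgeR's log2 fold changes over all cells were 0.628 (Aire) and 0.349 (Fezf2) and that of Fezf2 in neuroendocrine-like cells -0.897, all past the threshold, and genes called were 2991, 628, 85, 391 and 191 in the same order. With 6 hashtags, log2 fold changes changed sign for Fezf2 in tuft-like (-0.079) and microfold-like (-0.489) and for Aire in immature mTEC-like (0.288) and neuroendocrine-like cells (-0.161). Without a change of sign they moved to -1.307 and -0.7 (Aire and Fezf2, enterocyte or hepatocyte-like), -0.893 (Aire, microfold-like), -1.265 (Fezf2, neuroendocrine-like) and -0.551 (Fezf2, keratinocyte-like), and 6 genes were called in transit-amplifying-like cells. With 6 hashtags, also, the difference in the share with Aire in Aire-stage-like cells was -3.94 points. UMIs per Aire-holding cell then differed by 1.82 (Aire-stage-like) and -1.93 (Klk1b11-led), per Fezf2-holding transit-amplifying-like cell by -1.24, and the percent of Aire UMIs by 14.6 (Aire-stage-like), -9.75 (Klk1b11-led) and 1.35 (transit-amplifying-like). With a margin rule for hashtags, log2 fold changes of Aire were -0.038 (Aire-stage-like), -0.073 (transit-amplifying-like) and 0.011 (immature mTEC-like), and of Fezf2 -0.017 (microfold-like). That rule gave differences of -3.33 points for Aire in Aire-stage-like cells, 3.45 for Fezf2 and 4.71 for both in Klk1b11-led cells, -0.0706 for both in transit-amplifying-like cells, and -0.00199 for the Klk1b11-led co-detection ratio. It also gave -0.513 and 0.0277 UMIs per Aire-holding cell (Aire-stage-like, Klk1b11-led), 0.282 per Fezf2-holding transit-amplifying-like cell, and 8.11 and -3.84 for the percent of Aire UMIs in Aire-stage-like and Klk1b11-led cells; it called 0 genes in transit-amplifying-like and 1 in immature mTEC-like cells. Leiden resolution 0.5 gave no Klk1b11-led, Thrsp-led or immature mTEC-like class. Log2 fold changes were then 0.073 (Fezf2, transit-amplifying-like), 0.33 (Aire, keratinocyte-like), -0.147 (Fezf2, microfold-like) and 0.057 (Fezf2, enterocyte or hepatocyte-like). That last class was another set of cells, with Klk1b26, Klk1b16 and Klk1b11 among its top 10 genes. It held 265 and 224 cells in the spermidine samples (37 and 48 in the main run). In the PBS samples it held 221 and 210 (48 and 34 in the main run). In transit-amplifying-like cells this resolution gave differences of 7.71 points for both, -0.0055 for the ratio and 0.955 UMIs per Fezf2-holding cell, and 0 genes called. Under 10% mitochondrial UMIs, 3 genes were called in transit-amplifying-like cells.

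In shares and ratios of thinned cells, requiring at least 2 UMIs gave differences of -0.99 points (Aire, Aire-stage-like), 3.61 (Fezf2, Klk1b11-led), -5.89 and -3.25 (Fezf2 and both, transit-amplifying-like), and 0.0498 and -0.00986 for the Klk1b11-led and transit-amplifying-like ratios. Thinning to 10000 UMIs gave 0.000902 and 0.00618 for the Aire-stage-like and Klk1b11-led ratios, 1.5 points (Fezf2, Klk1b11-led) and -7.01 (both, transit-amplifying-like). Thinning to 2000 UMIs gave 4.35 points (Aire, Aire-stage-like), -1.46 (both, transit-amplifying-like), and -0.0992, -0.0658 and -0.0327 for the Aire-stage-like, Klk1b11-led and transit-amplifying-like ratios. Without thinning the differences were 3.54 points (Aire, Aire-stage-like), 2.73 (Fezf2, Klk1b11-led), 6.54 and 8.01 (Aire and both, transit-amplifying-like), and -0.0105 and -0.0312 for the Aire-stage-like and transit-amplifying-like ratios.

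With the replicate number as a block, 101 genes were called in transit-amplifying-like, 130 in tuft-like and 32 in keratinocyte-like cells. It called 5 in enterocyte or hepatocyte-like and 1 in Klk1b11-led cells. The main fits called 1, 12, 0, 0 and 0 in these classes. In the other fits the block called 0 genes. With it the log2 fold change of Aire in immature mTEC-like cells was 0.021. Crossing the replicate block there, added after seeing the data because the correlation was -0.134, called 127 genes.

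Leaving out each sample in turn, log2 fold changes of Aire ran from 0.419 to 0.867 over all cells, from -0.029 to 0.046 in Aire-stage-like, from -0.142 to 0.017 in Klk1b11-led, from -0.146 to 0.194 in transit-amplifying-like, from -1.036 to 0.24 in enterocyte or hepatocyte-like, from -0.585 to 0.706 in immature mTEC-like and from -0.976 to 0.811 in neuroendocrine-like cells. Without a change of sign, they ran from -0.775 to -0.117 in microfold-like, from -0.581 to -0.109 in tuft-like and from -0.793 to -0.155 in keratinocyte-like cells. Those of Fezf2 ran from 0.156 to 0.567 over all cells, from -0.271 to 0.026 in Aire-stage-like, from -0.084 to 0.333 in Klk1b11-led, from -0.374 to 0.09 in immature mTEC-like, from -0.119 to 0.189 in microfold-like, from -0.034 to 0.67 in tuft-like cells, and from -1.533 to -0.49 in neuroendocrine-like cells. The difference of the treatment effect between Aire-stage-like and transit-amplifying-like cells ran from -0.212 to 0.114 for Aire and from -0.207 to 0.052 for Fezf2, and the difference from class levels alone from -21.1 to 1.87 (Aire) and from -31.5 to 3.04 (Fezf2) UMIs per 1000000. Genes called ran from 0 to 762 over all cells, 0 to 8 in Klk1b11-led, 6 to 19 in immature mTEC-like and 8 to 176 in transit-amplifying-like cells. A lone sample left in a group is assumed to vary like the other group. DESeq2 was not run for the interaction, where the sample was already a term. Outside its 4 main classes, Aire rests on 8 to 715 UMIs per class.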
